A study of Mus musculus with 28 samples.

Results

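A set of 9 genes that govern how the liver stores glycogen and senses glucose, called members here, was followed through 3 count tables. The list was selected on liver values already seen, those of ASK1-MKO against Lyz2-Cre with its high Ppp1r3g. They are the glycogen-targeting subunits of protein phosphatase 1 Ppp1r3g, Ppp1r3b and Ppp1r3c, the glycogen synthases Gys2 and Gys1, the liver glycogen phosphorylase Pygl, the regulator of liver glucose phosphorylation Gckr, the glucose-sensing transcription factor ChREBP (Mlxipl) and its target Txnip. Rows were taken by symbol in the liver table, which holds 17752 features, and by Ensembl identifier in the macrophage tables, which hold 56748 (NFATc3-MKI) and 21959 (ASK1-MKI). All 9 members were in the liver table and passed its low-count filter. In the macrophages 2 of 9 passed the filter of the NFATc3-MKI table and 4 of 9 that of the ASK1-MKI table.

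The livers came from male mice, aged 8 weeks when they began a diet deficient in methionine and choline, which they ate freely for 4 weeks. This diet brings on fatty, inflamed liver. The 4 groups, with 4 livers each, were Lyz2-Cre controls, NFATc3-MKO and ASK1-MKO mice, whose labels name NFATc3 or ASK1 (gene Map3k5) as removed from macrophages, and MDKO mice, labelled as a double knockout of both with no cell type named. All 4 groups ate the same diet, so none shows the members on ordinary food. Lyz2-Cre acts in macrophages and other myeloid cells, not in hepatocytes, and the labels name it for the controls only. The other 12 libraries were bone marrow-derived macrophages, grown for 7 days in DMEM with 30% L929-conditioned medium and 10% fetal ovine serum, from NFATc3-MKI or ASK1-MKI (knock-in) mice and a separate Lyz2-Cre control set for each (3 cultures in every group). Nothing in the labels says whether same-group samples came from separate animals or cultures, so p-values measure only the spread between these samples.

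Glycogen is made by glycogen synthase and cut by glycogen phosphorylase. Both are steered by phosphate groups, and the PPP1R3 subunits bring protein phosphatase 1 to the glycogen particle, where removal of phosphate activates the synthase and silences the phosphorylase. In hepatocytes glucose is trapped by phosphorylation, and the protein from Gckr restrains that step when glucose is low. ChREBP, paired with Mlx, binds carbohydrate response elements (2 E-box-like CACG sequences with 5 bases between them) when glucose metabolites rise, and Txnip, which restrains glucose uptake, is among its best known targets. Gys2 and Pygl are the liver forms, while Gys1 is the form of muscle and most other tissues.

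Of the members, 7 of 9 had an entry among RefSeq promoters (GRCm38.p6), with 8 start sites in all. The 250 bases before each start were searched on both strands for CACGTG, an E-box that reads the same on both strands, and for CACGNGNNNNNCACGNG, the spaced pair. CACGTG was present before 6.02% of the 32851 starts in the table and the spaced pair before 0.0457% of them. A match occurred at 3 of the 8 member starts, and these are shown with the match in capitals because the genes behind them include the ChREBP target Txnip and ChREBP's own gene. For Txnip (chr3:96557707-96557956, plus strand) the spaced pair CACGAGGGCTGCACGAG began 85 bases before the start. For Mlxipl (chr5:135089640-135089889, plus strand) CACGTG began 98 bases before the upstream of its 2 starts. For Ppp1r3c (chr19:36736605-36736854, minus strand) CACGTG began 104 bases before the start. A match is a description of the letters only.
Txnip: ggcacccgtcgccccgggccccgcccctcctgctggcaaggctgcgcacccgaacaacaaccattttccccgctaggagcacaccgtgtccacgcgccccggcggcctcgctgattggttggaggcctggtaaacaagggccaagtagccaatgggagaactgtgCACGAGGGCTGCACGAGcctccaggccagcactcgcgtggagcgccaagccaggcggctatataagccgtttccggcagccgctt
Mlxipl: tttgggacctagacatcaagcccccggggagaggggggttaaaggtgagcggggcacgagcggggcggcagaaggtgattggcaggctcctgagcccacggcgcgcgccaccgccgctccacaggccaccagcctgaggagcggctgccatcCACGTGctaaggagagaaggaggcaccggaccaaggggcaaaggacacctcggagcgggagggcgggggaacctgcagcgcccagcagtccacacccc
Ppp1r3c: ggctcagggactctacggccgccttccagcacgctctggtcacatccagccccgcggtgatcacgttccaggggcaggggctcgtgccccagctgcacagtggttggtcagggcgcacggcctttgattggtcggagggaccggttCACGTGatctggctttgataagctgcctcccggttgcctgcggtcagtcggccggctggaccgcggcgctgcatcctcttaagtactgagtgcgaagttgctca
The second Mlxipl start lies 17001 bases downstream and had neither motif before it. The counts are per gene, so transcripts from the 2 starts cannot be told apart in what follows. The windows before Ppp1r3g, Gys1, Pygl and Gckr had neither motif.

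Of the livers 15 held between 20601168 and 30834547 counts, liver 3 of MDKO held 8912117, and the 12 macrophage libraries held 7693464 to 18728508. The targeted genes gave a weak check of the labels. In livers Nfatc3 stood at 28.3 ± 5.78 CPM in NFATc3-MKO against 36.3 ± 3.94 in Lyz2-Cre. These ranges overlapped (19.63 to 31.51 and 30.64 to 39.8 CPM). Map3k5 stood higher in ASK1-MKO (46.2 ± 6.12) than in Lyz2-Cre (30.9 ± 2.21; SD, n = 4). In MDKO both means were near those of Lyz2-Cre, with Nfatc3 at 36.58 and Map3k5 at 30.55 CPM. Each knock-in had a lower mean of its gene than its controls. Nfatc3 ran from 76.1 to 90.18 CPM in NFATc3-MKI cultures against 90.61 to 105.1 in controls. Map3k5 ran from 26.68 to 27.31 CPM in ASK1-MKI cultures against 29.95 to 30.3. CPM here are counts scaled to a common library size, with edgeR's trimmed mean of M values. One feature of the libraries bears on every comparison with MDKO. Each MDKO liver most resembled the Lyz2-Cre liver of the same number: the SD of their log2 differences over genes was 0.136 to 0.19 in these 4 pairs, against 0.219 to 0.481 in the 12 other Lyz2-Cre and MDKO pairs and 0.235 to 0.444 between Lyz2-Cre livers. Their counts still differed by more than sampling noise (chi-square per degree of freedom 2.31 to 13.7). This cannot tell separate animals from repeat libraries of the same animal, and the samples were kept separate as labelled.

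The members show the same pairing. Same-numbered MDKO and Lyz2-Cre livers were within 1.2-fold of each other in 32 of 36 member values, against 41 of 108 for livers of different number. The exceptions were among the sparsely counted Ppp1r3g and Gys1, as the plot of same-numbered livers shows. What links these livers was not tested.

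**Figure D1:**
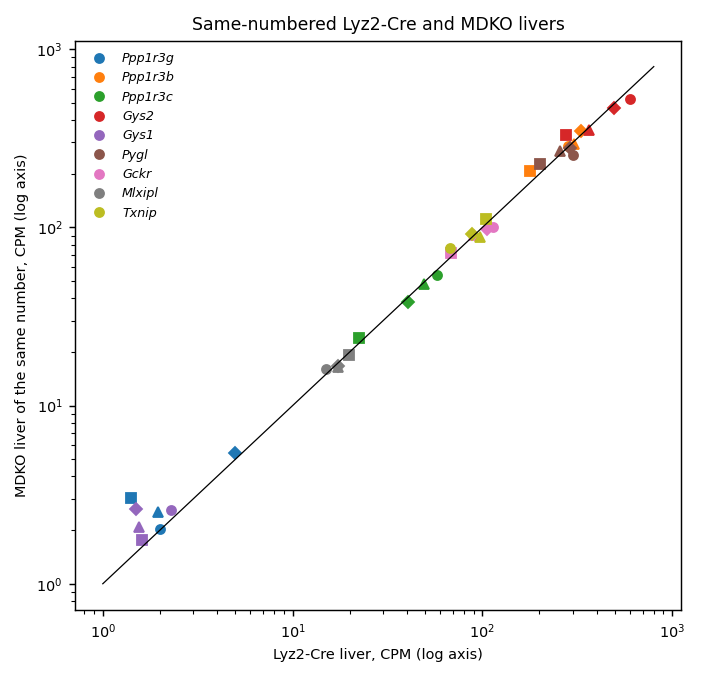
Levels of the 9 members in each MDKO liver (vertical log axis, CPM) against the Lyz2-Cre liver of the same number (horizontal log axis, CPM). Circles, squares, triangles and diamonds are replicates 1 to 4, colours are genes and the line marks equal levels; 32 of 36 points lie within 1.2-fold of it.

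In Lyz2-Cre livers the members spanned a wide range of CPM per kb of exon, the scale on which genes can be compared. Gys2 was highest at 163 ± 52.8 CPM per kb, followed by Ppp1r3b (44.2 ± 10.7), Pygl (38.0 ± 6.52), Txnip (28.6 ± 5.15), Gckr (21.9 ± 4.61) and Ppp1r3c (15.6 ± 5.55). Mlxipl (3.15 ± 0.351), Ppp1r3g (0.963 ± 0.605) and Gys1 (0.363 ± 0.078; all SD, n = 4) were lowest. Neighbours from Ppp1r3b down to Ppp1r3c lay within the sum of their SDs, while Gys2 stood above and Mlxipl below them by more. The liver isoform Gys2 was thus far above the general isoform Gys1 in this tissue, and skeletal muscle markers were at or near 0 (at most 0.115 CPM summed over the 2 of 4 markers read there).

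Against Lyz2-Cre, NFATc3-MKO livers had lower levels of Ppp1r3b and Gys2, which promote and carry out glycogen synthesis, and of Gckr, and higher levels of Mlxipl and Txnip. Of the 9 members 5 passed the test, 2 higher and 3 lower, where 8.45% of all 13309 genes tested passed (3.77% higher, 4.67% lower). The groups did not overlap in 3 members, beside 12.8% of genes. The same 4 Lyz2-Cre livers were part of the comparison on which the list was selected, so these counts are not independent of the choice and nothing is read from them. The members' median log2 change was -0.47, beside 0.03 over all genes. Only the fall of Ppp1r3b kept its call with each of the 8 libraries left out in turn. With the MDKO livers out of the fit 3 members passed, Ppp1r3b (edgeR adjusted p = 0.0196), Txnip (0.0399) and Gys2 (0.0472), while Mlxipl (0.0629) and Gckr (0.0758) did not.

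ASK1-MKO livers carried Ppp1r3g about 10.4-fold above Lyz2-Cre livers, with higher Mlxipl and Txnip. Because the list was chosen with that comparison in view, all values from ASK1-MKO livers are given for the members as descriptions without a test. There 3 of 9 members passed the threshold, all higher, beside 8.46% of all genes (4.46% higher), and 3 did not overlap, beside 18.2%; nothing is read from these counts. MDKO against Lyz2-Cre had 0 of 9 members and 0 of 13309 genes (0%) past the threshold by edgeR's test, and 0 by DESeq2 and by limma's voom. At an unadjusted p under 0.05 there were 35 genes and 0 members. Equal groups of unrelated livers would give a share of genes near 0.05, far more than this. The test did not pair same-numbered livers, which resemble each other, and with a replicate block 0 of 13309 genes passed as well.

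**Figure D2:**
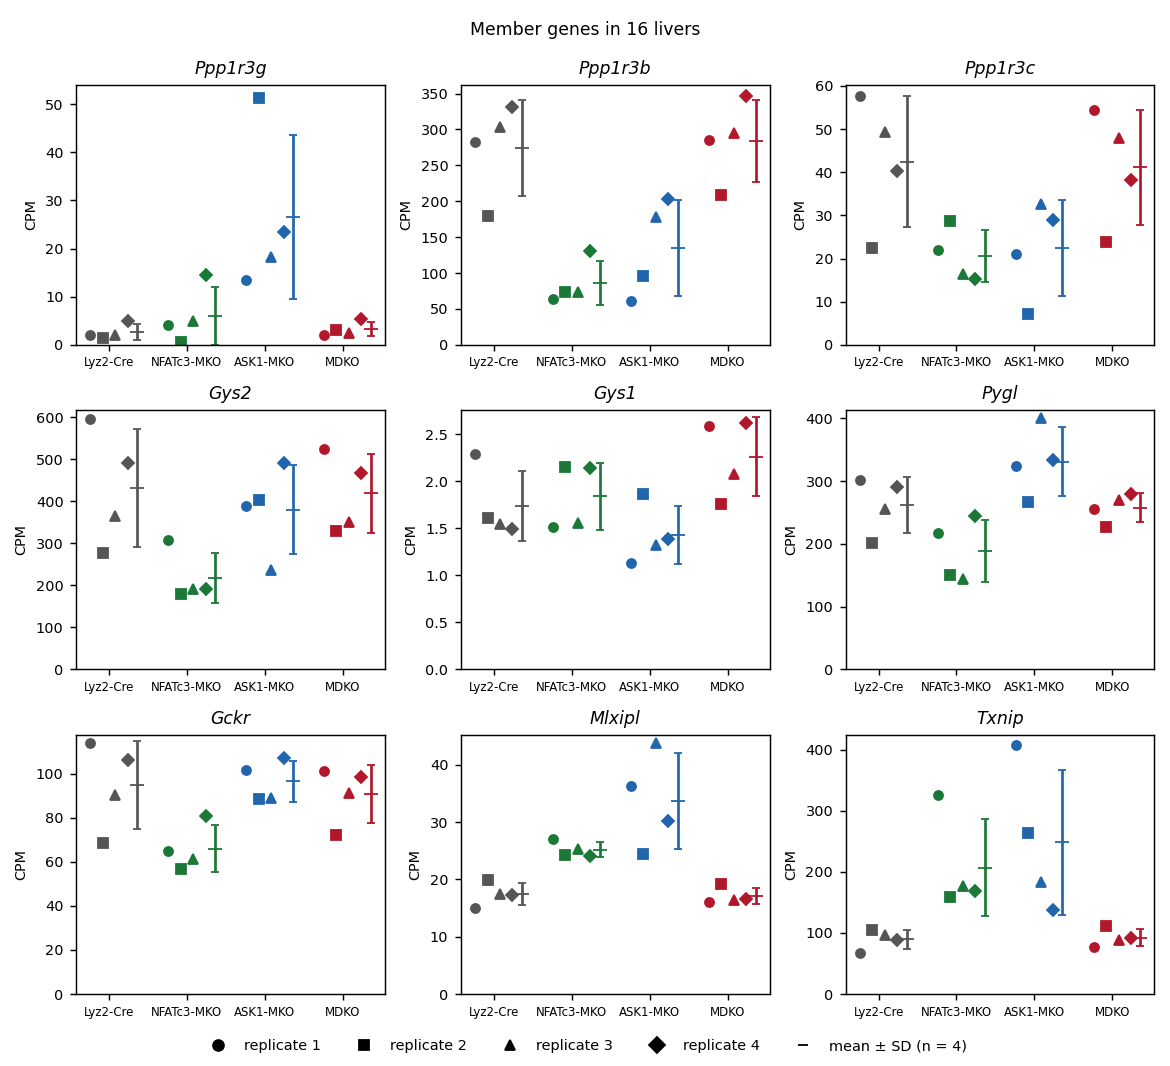
Levels of the 9 members in CPM (vertical axis, from 0) in the 4 liver groups. Each symbol is 1 liver, with shapes for replicates 1 to 4, and the bars give mean ± SD (n = 4); Ppp1r3g in ASK1-MKO runs from 13.4 to 51.4 CPM, above every Lyz2-Cre and MDKO liver.

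Ppp1r3g (ENSMUSG00000050423, chr13:35958839-35970388 in mm10) encodes a targeting subunit known in liver for raising glycogen synthesis after a meal. In the 4 Lyz2-Cre livers it stood at 2.01, 1.40, 1.96 and 5.00 CPM. In NFATc3-MKO it stood at 4.06, 0.529, 4.96 and 14.5, the widest relative spread of any member. ASK1-MKO livers had 13.4, 51.4, 18.2 and 23.5 CPM, and MDKO livers 2.04, 3.03, 2.53 and 5.41. The ASK1-MKO livers were all above the Lyz2-Cre and MDKO livers, and 1 NFATc3-MKO liver (replicate 4) reached into their range. The log2 change was 3.38 ± 0.68 (SE) for ASK1-MKO minus Lyz2-Cre and -3.00 ± 0.67 for MDKO minus ASK1-MKO, both descriptions. Leaving out single libraries kept the first between 2.86 (without liver 2 of ASK1-MKO) and 3.89. NFATc3-MKO differed from Lyz2-Cre by 1.23 ± 0.66, which did not pass (edgeR adjusted p = 0.243), and the value was 0.33 to 1.74 with 1 library left out, lowest without liver 4 of NFATc3-MKO.

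Ppp1r3b (ENSMUSG00000046794, chr8:35375739-35388139) encodes the main liver targeting subunit, G-L, and went the other way. Its level was 283, 179, 304 and 332 CPM in Lyz2-Cre livers. In NFATc3-MKO livers it was 64.4, 73.6, 73.2 and 131 CPM. Every NFATc3-MKO liver was below every Lyz2-Cre liver, and the log2 change was -1.68 ± 0.33 (edgeR adjusted p = 0.00756, at most 0.0308 with any 1 library left out). ASK1-MKO livers were split, at 61.1 and 95.9 CPM in replicates 1 and 2 and 178 and 204 CPM in replicates 3 and 4, with a log2 change from Lyz2-Cre of -1.03 ± 0.32 and overlapping groups. MDKO livers, at 285, 208, 296 and 347 CPM, were above every NFATc3-MKO liver, by 1.73 ± 0.33 (edgeR adjusted p = 0.00613). Against Lyz2-Cre the MDKO difference was 0.05 ± 0.32.

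Ppp1r3c (ENSMUSG00000067279, chr19:36731731-36736653) encodes PTG, a targeting subunit found in many tissues. Lyz2-Cre livers had 57.7, 22.4, 49.4 and 40.3 CPM and NFATc3-MKO livers 21.9, 28.6, 16.5 and 15.2. The groups overlapped through the low liver 2 of Lyz2-Cre, and the log2 change of -1.05 ± 0.38 did not pass (edgeR adjusted p = 0.0932). It passed without that liver (-1.24, adjusted p = 0.0475), and in DESeq2's Wald test (adjusted p = 0.0424) and limma's voom (adjusted p = 0.0275). ASK1-MKO livers had 21.1, 7.23, 32.6 and 28.9 CPM, a log2 change of -0.92 ± 0.38, and MDKO livers 54.4, 23.8, 48.0 and 38.2, a change of -0.05 ± 0.38. Among the 3 targeting subunits the ASK1-MKO livers thus held more Ppp1r3g and less Ppp1r3b on average, and replicate 2, the highest in Ppp1r3g, was the lowest in Ppp1r3c.

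Gys2 (ENSMUSG00000030244, chr6:142422613-142473109), the liver glycogen synthase, was lower in NFATc3-MKO livers. Lyz2-Cre livers had 596, 277, 365 and 491 CPM, and NFATc3-MKO livers 307, 180, 192 and 191. Only liver 1 of NFATc3-MKO reached the Lyz2-Cre range. The log2 change of -0.99 ± 0.26 passed (edgeR adjusted p = 0.0289) but was lost without liver 1, 3 or 4 of Lyz2-Cre or liver 2, 3 or 4 of NFATc3-MKO (adjusted p 0.0578 to 0.0802). ASK1-MKO livers, at 390, 404, 236 and 492 CPM, overlapped Lyz2-Cre with a log2 change of -0.19 ± 0.25. MDKO livers, at 525, 330, 352 and 469 CPM, all lay above NFATc3-MKO (0.95 ± 0.26, edgeR adjusted p = 0.0352, lost without liver 1, 3 or 4 of MDKO or liver 2, 3 or 4 of NFATc3-MKO, where it was 0.0632 to 0.103) and near Lyz2-Cre (-0.04 ± 0.25).

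Gys1 (ENSMUSG00000003865, chr7:45434844-45456619) was scarce in every liver, from 1.13 to 2.62 CPM. Its log2 change from Lyz2-Cre was 0.08 ± 0.23 in NFATc3-MKO (edgeR adjusted p = 0.855), -0.28 ± 0.23 in ASK1-MKO and 0.38 ± 0.23 in MDKO (edgeR adjusted p = 0.9999). Its exons share 310 of 4789 bases with Ruvbl2 on the opposite strand, and whether the counting used strand is not given in the sources used here, so some of these reads could belong to Ruvbl2.

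Pygl (ENSMUSG00000021069, chr12:70190811-70231488), the enzyme that releases glucose units from liver glycogen, had its own largest liver difference between the single knockouts. Lyz2-Cre livers had 301, 202, 255 and 291 CPM. NFATc3-MKO livers had 216, 150, 145 and 245 CPM, and ASK1-MKO livers 324, 266, 400 and 334. No NFATc3-MKO liver reached an ASK1-MKO liver, a log2 difference of -0.81 ± 0.18. Each single knockout overlapped Lyz2-Cre, at -0.47 ± 0.18 for NFATc3-MKO (edgeR adjusted p = 0.104) and 0.34 ± 0.18 for ASK1-MKO. MDKO livers (256, 227, 269 and 280 CPM) were at -0.02 ± 0.18 of Lyz2-Cre.

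Gckr (ENSMUSG00000059434, chr5:31297443-31327314) was 114, 68.7, 90.2 and 106 CPM in Lyz2-Cre livers and 65.0, 56.5, 61.4 and 81.0 in NFATc3-MKO. The groups overlapped, and the log2 change of -0.52 ± 0.16 only just passed (edgeR adjusted p = 0.0499). It did not pass without liver 1, 3 or 4 of Lyz2-Cre or liver 1, 2 or 3 of NFATc3-MKO (adjusted p 0.0678 to 0.137), nor with DESeq2's size factors (0.0552). ASK1-MKO livers, at 102, 88.3, 89.0 and 107 CPM, were at 0.03 ± 0.16 of Lyz2-Cre and all above NFATc3-MKO, and MDKO livers (101, 72.2, 91.0 and 98.4) at -0.06 ± 0.16.

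Mlxipl (ENSMUSG00000005373, chr5:135089890-135138382) encodes ChREBP itself. Lyz2-Cre livers had 15.1, 19.8, 17.4 and 17.3 CPM and NFATc3-MKO livers 27.1, 24.3, 25.4 and 24.1. The groups did not overlap, and the rise of 0.53 ± 0.15 passed (edgeR adjusted p = 0.035), though not without liver 1, 3 or 4 of Lyz2-Cre or liver 1, 2 or 3 of NFATc3-MKO (adjusted p 0.0516 to 0.103). ASK1-MKO livers had 36.2, 24.5, 43.9 and 30.2 CPM, all above Lyz2-Cre, with a log2 change of 0.95 ± 0.15 that stayed between 0.82 and 1.10 with single libraries left out. MDKO livers had 16.1, 19.2, 16.5 and 16.6 CPM, at -0.02 ± 0.15 of Lyz2-Cre and below every NFATc3-MKO liver (-0.56 ± 0.15, edgeR adjusted p = 0.0315, lost without liver 1, 3 or 4 of MDKO or liver 2 or 3 of NFATc3-MKO, where it was 0.05001 to 0.0976). The antisense gene Gm43500 shares 235 of the 5538 exon bases of Mlxipl.

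Txnip (ENSMUSG00000038393, chr3:96557957-96561883), whose promoter holds the spaced CACG pair printed above, moved in the same direction as Mlxipl. Lyz2-Cre livers had 67.3, 104, 97.3 and 88.4 CPM. NFATc3-MKO livers had 325, 158, 176 and 168 CPM, and ASK1-MKO livers 408, 264, 184 and 137. All 8 single-knockout livers were above all Lyz2-Cre livers. The log2 change in NFATc3-MKO was 1.21 ± 0.29 (edgeR adjusted p = 0.0196), and it narrowly missed the threshold without liver 1, 3 or 4 of Lyz2-Cre (0.0543 to 0.0595). In ASK1-MKO it was 1.47 ± 0.29, and 1.13 without replicate 1. MDKO livers, at 77.0, 111, 88.8 and 91.9 CPM, were at 0.05 ± 0.29 of Lyz2-Cre and all below NFATc3-MKO (-1.17 ± 0.29, edgeR adjusted p = 0.0235, lost without liver 1, 3 or 4 of MDKO, where it was 0.0501 to 0.0751). The antisense gene Gm15441 shares 606 of the 3123 exon bases of Txnip; its liver level was not analysed here.

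**Figure D3:**
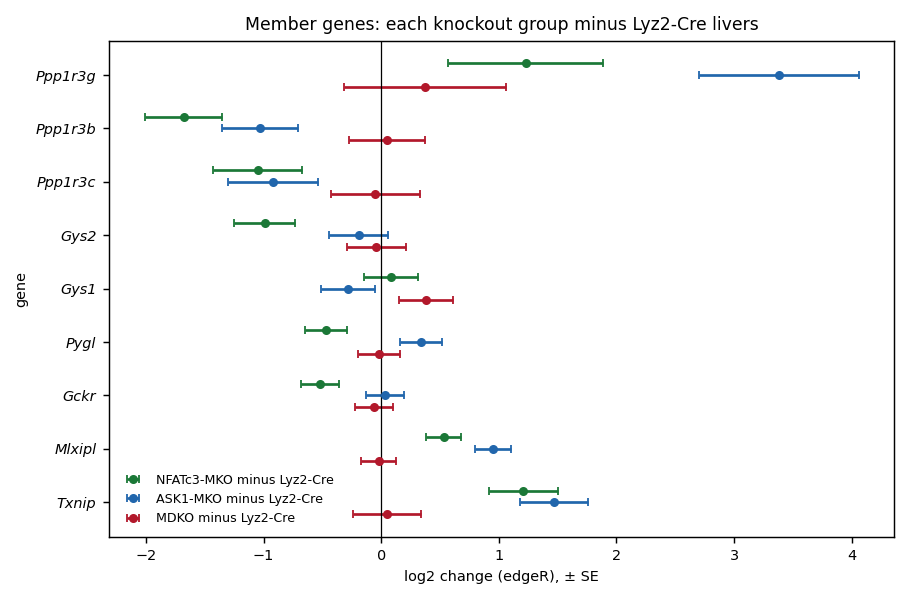
Log2 change with its SE (horizontal axis) of each member for the 3 knockout groups minus Lyz2-Cre, from edgeR. All 3 sets of points use the same 4 control livers; Ppp1r3g in ASK1-MKO is farthest from 0, at 3.38, and the MDKO points reach at most 0.38.

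Txnip was high where Ppp1r3b was low across the livers. Over the 16 livers Pearson's r of their log2 CPM was -0.886, and over the 12 livers without MDKO it was -0.858. Within ASK1-MKO the order of the 4 livers in Txnip was the reverse of their order in Ppp1r3b, which it was not in any of the other 3 groups. Mlxipl and Txnip had r = 0.805 over 16 and 0.743 over 12 livers. Gckr went with Pygl (0.845 and 0.863) and with Gys2 (0.827 and 0.828). These are descriptions over livers that share groups and, for MDKO, resemble a control liver.

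**Figure D4:**
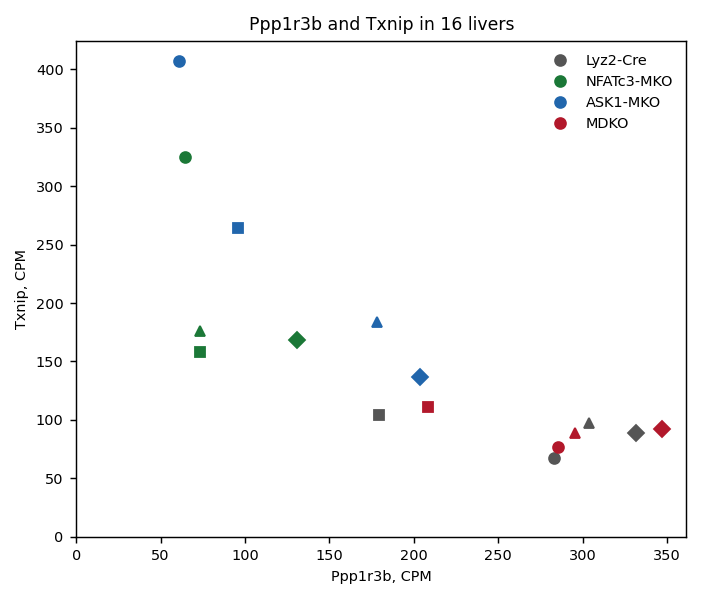
Txnip (vertical axis, CPM) against Ppp1r3b (horizontal axis, CPM) in the 16 livers. Colours are groups and shapes are replicates 1 to 4; the 6 livers with the least Ppp1r3b (61.1 to 131 CPM) have Txnip from 158 to 408 CPM, and the Lyz2-Cre and MDKO livers sit at the lower right.

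The genes whose log2 CPM most resembled each member over the 16 livers were ranked by Pearson's r over 11898 genes whose mean was 1 CPM or more. Ppp1r3g was nearest to Coq10b (0.853), Klhl3 (0.852) and Lurap1l (0.842), and its first value was the lowest of the 9 members. Ppp1r3b was nearest to G3bp1 (0.955), Exoc8 and Ncoa5. Mlxipl was nearest to Golga5 (0.956), Golph3 (0.948) and Maff (0.943), and Txnip to Rbm33 (0.935), Bmf (0.934) and Smurf1 (0.931). Gckr was nearest to Nat8f1 (0.974) and to Fbp1, a gluconeogenic enzyme (0.961). Gys2 was nearest to Decr1, of fatty acid oxidation (0.946), and Pygl to Atxn7l3b (0.93).

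Other glycogen genes were also tested against Lyz2-Cre in the livers. Of 24 tested, 1 rose in NFATc3-MKO (Gyg, the glycogenin primer, 0.43 ± 0.12, edgeR adjusted p = 0.0369), and that call was lost without liver 1, 3 or 4 of Lyz2-Cre or liver 2 or 3 of NFATc3-MKO (0.061 to 0.127). In ASK1-MKO 2 of 24 fell. Ppp1r3f, another targeting subunit, had a log2 change of -1.76 ± 0.36 (edgeR adjusted p = 0.00715) at a low level, 0.181 ± 0.048 CPM against 0.62 ± 0.105. Nhlrc1, which encodes malin, a ligase that marks glycogen-bound proteins, fell by 1.04 ± 0.26 (edgeR adjusted p = 0.0203, lost without liver 1 or 2 of ASK1-MKO or liver 1 or 3 of Lyz2-Cre, where it was 0.0541 to 0.0758). The list's median log2 change was -0.08 in NFATc3-MKO and -0.04 in ASK1-MKO, beside 0.03 and -0.03 over all genes, and 0 of 24 passed in MDKO against Lyz2-Cre (edgeR). Over all genes 8.45%, 8.46% and 0% passed in these comparisons, and nothing is read from the list's counts. NFATc3-MKO minus ASK1-MKO had 2 of 24 higher and 2 lower, beside 12.8% of all genes. MDKO minus NFATc3-MKO had 2 lower (7.35%), and MDKO minus ASK1-MKO 1 higher (7.72%).

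Genes that passed in the ChREBP partner and target list went in both directions. In NFATc3-MKO livers 0 of 20 tested rose and 3 fell, beside 3.77% and 4.67% of all genes. Nothing is read from these counts. Scd1, the fatty acid desaturase, fell by 1.78 ± 0.36 (edgeR adjusted p = 0.00818) and Mid1ip1, an activator of acetyl-CoA carboxylase, by 1.56 ± 0.30 (0.00727), both kept with any 1 library left out. Bhlhe40, a transcriptional repressor, fell by 0.65 ± 0.17 (0.0303), lost without liver 1, 3 or 4 of Lyz2-Cre or liver 3 of NFATc3-MKO (0.0561 to 0.0784). In ASK1-MKO livers Mid1ip1 also fell, by 1.54 ± 0.30 (edgeR adjusted p = 0.00479), but Scd1 rose by 1.68 ± 0.35 (0.00806), to 1117 ± 386 CPM from 349 ± 90.1 (SD, n = 4). The 2 single knockouts were thus on opposite sides of the controls in Scd1, with a difference between them of -3.46 ± 0.38 (edgeR adjusted p = 3.796e-05). Klf10 rose in ASK1-MKO by 1.25 ± 0.37 (0.0456), a call lost without liver 1, 3 or 4 of ASK1-MKO or any 1 Lyz2-Cre liver (0.0773 to 0.137). The list's median log2 change was -0.45 in NFATc3-MKO and -0.10 in ASK1-MKO, beside 0.03 and -0.03 over all genes.

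Among 12 tested genes of insulin and glucagon signalling, 0 passed in NFATc3-MKO or MDKO against Lyz2-Cre (edgeR), beside 8.45% and 0% of all genes. In ASK1-MKO 1 rose and 1 fell, beside 8.46% of all genes called, and nothing is read from these counts. In ASK1-MKO livers Pck1, which starts gluconeogenesis, rose by 1.27 ± 0.34 (edgeR adjusted p = 0.0281, lost without liver 1 or 2 of ASK1-MKO or liver 1 or 3 of Lyz2-Cre, where it was 0.0618 to 0.0829). Prkaca, a catalytic subunit of protein kinase A, fell there by 0.44 ± 0.13 (edgeR adjusted p = 0.0395, lost without any 1 ASK1-MKO liver or liver 1, 3 or 4 of Lyz2-Cre, where it was 0.0516 to 0.129).

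Some clock genes, which time feeding-linked liver genes, passed the test in both single knockouts. In NFATc3-MKO 3 of 16 rose and 3 fell, beside 8.45% of all genes called, and in ASK1-MKO 7 rose and 3 fell, beside 8.46%, while 0 passed in MDKO against Lyz2-Cre. Nr1d1, a clock repressor, rose by 1.53 ± 0.29 in NFATc3-MKO (edgeR adjusted p = 0.00704) and by 1.78 ± 0.29 in ASK1-MKO (0.00161). Cry1, another clock repressor, fell by 1.08 ± 0.17 (edgeR adjusted p = 0.00321) and 1.02 ± 0.17 (0.00186). Nfil3 fell in NFATc3-MKO by 1.94 ± 0.38 (0.00798), and Nr1d2 rose there by 0.80 ± 0.17 (0.011), lost without liver 3 of Lyz2-Cre (0.0528). In ASK1-MKO Nr1d2 rose by 1.51 ± 0.17 (0.000117) and Per1 by 1.07 ± 0.14 (0.000233). The clock list, like the other gene lists, was chosen with earlier results of these data known, so nothing is read from its counts. The part of these clock genes in the members' values was not tested.

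Some cell type markers also differed between the single knockouts and Lyz2-Cre livers. Summed hepatocyte markers (10 of 10 above 0) ran from 80510 to 122800 CPM in NFATc3-MKO, against an overlapping 108300 to 144700 in Lyz2-Cre. Of the 10 only Hnf4a passed, with a fall of 0.55 ± 0.11 (edgeR adjusted p = 0.00755). Summed markers of monocyte-derived or lipid-associated macrophages (6 of 6 above 0) ran from 122 to 808 CPM in NFATc3-MKO and from 87.8 to 241 in Lyz2-Cre, and summed neutrophil markers from 5.99 to 37.5 and from 1.78 to 8.37. These ranges overlapped too, and 1 of 6 and 2 of 3 tested markers rose by edgeR's test. In ASK1-MKO the hepatocyte sum was 118200 to 137300 CPM and the lipid-associated macrophage sum 81.7 to 182. Summed erythroid markers were lower in every ASK1-MKO liver (125 to 245 CPM) than in any Lyz2-Cre liver (251 to 390), and 2 of 4 fell by edgeR's test. Summed endothelial markers were lower in every NFATc3-MKO liver (88.1 to 128 CPM) than in any Lyz2-Cre liver (130.5 to 163), and 2 of 4 fell. Of the Kupffer cell markers 2 of 6 fell in NFATc3-MKO, with sums of 174 to 227 CPM against 199 to 400. Of the stellate cell markers 2 of 5 rose there, with sums of 359 to 615 against 465 to 484. So did 1 of 5 T and B lymphocyte markers (6.4 to 13.9 against 2.85 to 5.23) and 1 of 4 cholangiocyte markers (10.4 to 34.5 against 10.6 to 13.9). Of 7 pan-macrophage markers 0 passed (156 to 749.5 against 128 to 368). Over all genes 3.77% rose and 4.67% fell in NFATc3-MKO, and 4.46% and 4% in ASK1-MKO. Nothing is read from these marker counts. Fewer hepatocytes and less RNA per hepatocyte cannot be told apart in whole liver, and the part of these markers in the members' values was not tested.

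The remaining pairs of liver groups compare the knockouts with one another. MDKO minus NFATc3-MKO had 4 of 9 members past the threshold, 2 higher and 2 lower, where 7.35% of all genes passed (4.06% higher, 3.29% lower), and in 4 the groups did not overlap (12.7% of genes). Other members missed the threshold, with Pygl at 0.45 ± 0.18 (edgeR adjusted p = 0.122), Gckr at 0.46 ± 0.16 (0.0808) and Ppp1r3c at 1.00 ± 0.38 (0.11). As descriptions, MDKO minus ASK1-MKO had 1 member higher and 3 lower past the threshold (7.72% of genes, 3.46% higher and 4.26% lower) and 4 that did not overlap (18.1%), with Mlxipl at -0.98 ± 0.15 and Txnip at -1.43 ± 0.29. NFATc3-MKO minus ASK1-MKO had 4 of 9, all lower (12.8% of genes, 7.15% higher and 5.61% lower), and 2 that did not overlap (14.6%), with Ppp1r3g at -2.14 ± 0.63 and Gys2 at -0.81 ± 0.26. These comparisons share livers with one another, and each MDKO liver resembles a Lyz2-Cre liver. The list was selected on ASK1-MKO against Lyz2-Cre, so nothing is read from these counts.

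In cultured macrophages Gys1, the general glycogen synthase, and Txnip were lower in ASK1-MKI cultures than in their controls. All 4 members tested in the ASK1-MKI table passed and all were lower, where 49.1% of the 11380 genes tested passed (24.6% higher, 24.5% lower), and 3 did not overlap, where 54.5% of genes did not. With so few members and so high a background nothing is read from these counts. Gys1 had 37.0, 33.9 and 38.9 CPM in controls and 14.8, 13.5 and 17.0 in ASK1-MKI cultures, with no overlap. Its log2 change was -1.28 ± 0.07 (edgeR adjusted p = 1.239e-33). Txnip had 151, 153 and 154 CPM in controls and 110, 104 and 109 in ASK1-MKI, a log2 change of -0.51 ± 0.03 (edgeR adjusted p = 1.11e-29). Both changes kept their calls with any 1 culture left out. The spread between libraries, as edgeR's common coefficient of variation, was 0.0214 in this table, 0.0892 in the NFATc3-MKI table and 0.2075 in the livers. Whether the cultures of a group were separate is not given, so these p-values measure only that small spread. Cell type markers also differed between these cultures. Summed Kupffer cell markers ran from 288 to 307 CPM in ASK1-MKI and 879 to 903 in controls, and neutrophil markers from 28.2 to 29.1 and 89.5 to 94.0. Summed pan-macrophage markers ran from 35740 to 37730 CPM in ASK1-MKI and 33480 to 35810 in controls. The part of these markers in the members' values was not tested.

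Pygl and Ppp1r3b changed little in ASK1-MKI cultures. Pygl fell by 0.12 ± 0.03 (edgeR adjusted p = 9.521e-05), from 246 ± 5.62 to 227 ± 4.68 CPM (SD, n = 3). Ppp1r3b stood at 26.6 ± 1.01 in controls and 23.8 ± 1.99 in ASK1-MKI cultures with overlapping groups, and its change of -0.16 ± 0.07 (0.0487) was lost without culture 1 or 3 of the ASK1-MKI group or culture 2 or 3 of the control group (0.128 to 0.256) and in DESeq2's Wald test (0.14). Gys2 and Ppp1r3g had 0 counts in all 6 libraries, and Ppp1r3c, Gckr and Mlxipl at most 6 counts summed over a group.

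Several related genes also changed in the ASK1-MKI cultures, where 49.1% of all genes did. Arrdc4, a ChREBP target of the same arrestin family as Txnip, fell by 0.78 ± 0.05 (edgeR adjusted p = 7.671e-32), and the glucose transporter Slc2a1 by 0.93 ± 0.04 (4.509e-48). The branching enzyme Gbe1 fell by 0.46 ± 0.04 (7.64e-23) and Epm2a, which encodes the glycogen phosphatase laforin, by 0.87 ± 0.11 (2.256e-11). Hk3, a hexokinase, rose by 0.36 ± 0.02 (5.424e-29). Of the other glycogen genes 1 of 23 tested rose and 6 fell, and of the ChREBP partners and targets 3 of 15 rose and 5 fell, shares below and near that of all genes.

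In NFATc3-MKI cultures Gys1 had 47.0, 41.9 and 46.8 CPM against 61.5, 51.3 and 54.2 in their controls. The groups did not overlap, and the change of -0.30 ± 0.10 passed (edgeR adjusted p = 0.0287) but was lost without culture 1 or 3 of the control group or culture 2 or 3 of the NFATc3-MKI group (0.0567 to 0.172). Txnip was very abundant in both groups, at 8451, 8814 and 8295 CPM against 9840, 8444 and 10050, with a change of -0.15 ± 0.10 (edgeR adjusted p = 0.274; 0.0372 in limma's voom). Thus 1 of 2 members tested passed, lower, where 33.3% of the 13363 genes did (16.5% higher, 16.8% lower), and 1 did not overlap (45.8% of genes). The antisense Gm15441, which shares Txnip exon bases, stood at 3850 ± 420 CPM in these controls and 3438 ± 155 in NFATc3-MKI, and without the strand setting reads of the 2 genes cannot be told apart in the shared bases. Among related genes Gbe1 fell by 1.38 ± 0.14 (edgeR adjusted p = 8.488e-08), Epm2a by 1.63 ± 0.21 (2.907e-06) and Scd1 by 1.02 ± 0.09 (6.961e-09), while Hk3 rose by 0.89 ± 0.10 (2.657e-07). Of the other glycogen genes 2 of 20 tested rose and 8 fell, beside the 33.3% of all genes that passed.

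The 2 macrophage tables differ in the members far beyond either knock-in, and each was tested only within itself. Txnip was 104 to 154 CPM in the ASK1-MKI table and 8295 to 10050 in the NFATc3-MKI table. Pygl (222 to 252 CPM) and Ppp1r3b (22.1 to 27.3) were well counted in the ASK1-MKI table but had 0 counts in all 6 libraries of the NFATc3-MKI table, which allows up to 0.122 CPM over its control group and 0.114 over the knock-in group (3 counts over the group, counting error only). Of 8250 genes at 10 CPM or more in the ASK1-MKI table, 1.27% had no count in any library of the NFATc3-MKI table, and of 8665 such genes there 0.369% had none in the ASK1-MKI table. Macrophage markers also differ. The sum of 7 pan-macrophage markers ran from 1521 to 2126 CPM in the NFATc3-MKI table against 33480 to 37730. Of these, Adgre1 ran from 29.9 to 36.2 CPM against 2673 to 3329, Lyz2 from 362 to 501 against 26570 to 29890, and Mertk from 0 to 0.133 against 204 to 299. Summed markers of monocyte-derived or lipid-associated macrophages were lower in the NFATc3-MKI table's controls (4815 to 5430 against 13070 to 13160). They were higher in its knock-in group (17860 to 22460 against 12280 to 12430). The part of these markers in the gaps between the tables was not tested.

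**Figure D5:**
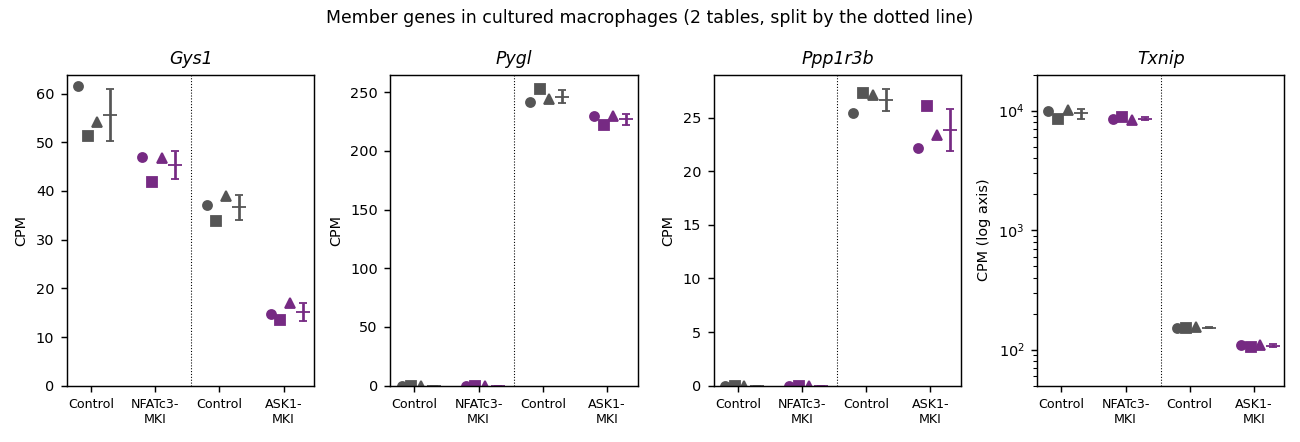
Levels in CPM (vertical axis; log scale for Txnip) of the 4 members counted in macrophages, in the NFATc3-MKI table (left of the dotted line) and the ASK1-MKI table (right). Circles, squares and triangles are cultures 1 to 3 and bars give mean ± SD (n = 3); Gys1 is lower in ASK1-MKI cultures (13.5 to 17.0) than in their controls (33.9 to 38.9), and Pygl and Ppp1r3b are at 0 in the left table.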

How the data were processed

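Messenger RNA was sequenced from 16 livers and 12 macrophage cultures. Per the labels' protocols, RNA was taken up in TRIzol, mRNA was purified on magnetic beads and libraries were directional (dUTP). HISAT2 and mm10 are named in the submitters' processing notes, and neither counting program nor annotation nor strand use was given in the sources used here. Expected counts make up the deposited liver table (85.42% whole) and were rounded for the tests, while the deposited macrophage tables are raw counts. The 9 members and all gene lists were chosen with earlier results of these data known.

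Each table was fitted alone with edgeR 4.0.16 in R 4.3.3: filterByExpr (13309, 13363 and 11380 genes kept), trimmed mean of M values scaling, a robust quasi-likelihood F test, and Benjamini-Hochberg adjustment over all genes, called at an adjusted p under 0.05. The 16 livers were 1 fit. Log2 changes are the first group minus the second, and the SE is the change divided by the square root of F. The fit was tested on simulated data. For every list and comparison up to 4 non-members past the threshold with the smallest p could be named, and the 3 most alike genes for each member. The result of 1 gene list for the livers is not reported here. Gene positions and exon lengths came from GENCODE M21 (mm10).

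Alternatives were DESeq2 1.42.0 size factors and Wald test, limma 3.58.1 voom with sample weights, omission of the filter, a filter at mean 1 CPM, the 2 groups alone, a replicate block and each library left out. Added after seeing the data were a fit without the MDKO group and a blocked fit of MDKO and Lyz2-Cre alone. Shared replicate numbers were checked through deviations from group means: same-numbered Lyz2-Cre and MDKO livers correlated at 0.494 to 0.817, each best with its own number (4 of 4), so the data, not the labels, pair these 2 groups. No other groups were paired by this check.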

Additional observations from a re-analysis of the deposited data

Results flagged for a closer look

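In 36 member-by-group sets of 4 livers, an outlier rule flagged 5. The rule (Dixon's) weighs the gap between the highest liver and the next against the range of the set. It flags about 1 in 20 sets of normal values, which CPM need not be, and the sets share livers. The share flagged over all genes is not given here, so nothing is read from the count. The flagged sets in Lyz2-Cre were Ppp1r3g (replicate 4, 5.00 CPM) and Gys1 (replicate 1, 2.29 CPM). In NFATc3-MKO they were Ppp1r3b (replicate 4, 131 CPM), Gys2 (replicate 1, 307 CPM) and Txnip (replicate 1, 325 CPM). Gys1 was sparsely counted, with 57 counts in replicate 1 against 38, 33 and 29 in the other Lyz2-Cre livers.

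By their labels, NFATc3-MKO against Lyz2-Cre and MDKO against ASK1-MKO both add the loss of NFATc3. The target genes do not bear out the second pair: Nfatc3 stood at 36.6 CPM in MDKO and 37.3 in ASK1-MKO, and Map3k5 at 30.6 and 46.2. Every liver moved one way in the first comparison and the other way in the second for 4 members, relative to the mean of the compared group. The difference of the log2 changes of means was 2.76 for Ppp1r3b, 1.92 for Ppp1r3c, -1.51 for Mlxipl and -2.64 for Txnip. This difference was not tested, and the MDKO livers in it each resemble a Lyz2-Cre liver. For these members MDKO was at -0.05 to 0.05 of Lyz2-Cre in log2 change. A gene that the single knockouts shifted the same way therefore tends to reverse here. The share of all genes that do so was not computed, and the list was selected on the ASK1-MKO livers used here. Nothing is read from the count of members.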

How the results depend on the processing

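The members called in NFATc3-MKO against Lyz2-Cre (5) fell to 3 with no filter, 2 with the 2 groups alone and 3 without the MDKO group, and ran from 1 to 6 with 1 library left out (1 without liver 1, 3 or 4 of Lyz2-Cre). In NFATc3-MKO against ASK1-MKO (4) they were 2 with no filter, 1 with the 2 groups alone and 2 without the MDKO group, and 1 to 4 with 1 library left out. In ASK1-MKO against Lyz2-Cre (3) voom called 5, and leaving out 1 library gave 3 to 4. The ranges with 1 library left out were 1 to 4 for MDKO against NFATc3-MKO, 2 to 4 for MDKO against ASK1-MKO, 0 to 0 for MDKO against Lyz2-Cre, 0 to 1 for NFATc3-MKI (voom called 2) and 3 to 4 for ASK1-MKI. Fewer libraries and another spread estimate are part of these alternatives, and the cause was not tested otherwise.

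Changes of sign occurred in values that did not pass the test. For MDKO minus Lyz2-Cre, Ppp1r3b was -0.01 in voom, and with 1 library left out the ranges were -0.01 to 0.89 for Ppp1r3g, -0.10 to 0.18 for Ppp1r3b, -0.26 to 0.15 for Ppp1r3c, -0.20 to 0.15 for Gys2, -0.12 to 0.05 for Pygl, -0.18 to 0.04 for Gckr, -0.09 to 0.05 for Mlxipl and -0.07 to 0.14 for Txnip. Gys1 in NFATc3-MKO minus Lyz2-Cre ran from -0.01 to 0.24, and Ppp1r3g in MDKO minus NFATc3-MKO from -1.24 to 0.05.

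With the replicate block the members called were 0 for MDKO against Lyz2-Cre (also with those 2 groups alone), 6 for NFATc3-MKO against Lyz2-Cre (Pygl added, adjusted p = 0.0391), 6 for MDKO against NFATc3-MKO (Pygl, 0.0451, and Gckr, 0.0142, added), 4 for ASK1-MKO against Lyz2-Cre, 4 for each of the other liver comparisons, 1 for NFATc3-MKI and 4 for ASK1-MKI. Over all genes the block moved NFATc3-MKO against Lyz2-Cre from 1124 to 1543 calls, the 2 groups alone gave 218, and voom gave 2628. Outside Lyz2-Cre and MDKO the samples share only a number: same-number correlations ran from -0.322 to 0.641, and 0 to 2 samples per pair of groups were closest to their own number. Ppp1r3g and Gys1, at 157 to 682 counts over the 4 livers of a group outside ASK1-MKO, are the members most limited by depth.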
